A study of Homo sapiens with 4 samples.

Results

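The long noncoding RNAs described here were UCA1, MALAT1, NEAT1, H19, MEG3, GAS5, HOTAIR, SNHG1 and DANCR, a list of 9 genes assembled by name. Each was represented by its brightest annotated probe set, by mean signal over all arrays. Of the 9 genes 6 had an annotated probe set, against 18417 genes in the whole series with a probe set of 1 gene symbol. UCA1, MALAT1 and MEG3 had a probe set with their own symbol alone. The probe sets of H19, GAS5 and SNHG1 carried a second symbol, so that their signal cannot be assigned to the long RNA alone. NEAT1, HOTAIR and DANCR had no annotated probe set in the table used and were not analysed here. UCA1 headed the list because it was among the deepest falls of this comparison, so its values are a description and carry no test.

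RNA came from the human breast cancer line MDA-MB-231, which is mesenchymal-like and lacks oestrogen receptor, after transfection with plasmid encoding FOXC1, a forkhead transcription factor, or with vector. Both groups were grown in DMEM with serum, penicillin and streptomycin, and both received plasmid with the Lipo2000 reagent. Each group had 2 arrays, called biological replicates in the labels, 4 whole-transcript Affymetrix arrays in all. The sources used here do not say whether transfection was transient or stable, whether cells were a pool or a clone, or which promoter drove FOXC1. The level of FOXC1 was not analysed here. The median signal per array was 499 and 512 in FOXC1 cells and 492 and 489 in vector cells. The 6 markers of MDA-MB-231 cells that were looked up, VIM, CD44, EGFR, CAV1, AXL and MSN, lay between the 90.0 and 99.8 percentile of signal over all named probe sets. Of the 6, CD44 and EGFR rose, VIM, CAV1 and MSN fell, and AXL did not pass. The 5 luminal markers ESR1, PGR, GATA3, CDH1 and EPCAM lay between the 6.52 and 51.8 percentile, and their summed signal was 2118 and 2110 in FOXC1 cells and 2519 and 2523 in vector cells. Of the 5, EPCAM and GATA3 fell, and ESR1, PGR and CDH1 did not pass.

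Long noncoding RNAs act without being translated, as scaffolds, decoys or guides for proteins and other RNAs, and some serve mainly as carriers of small RNAs in their introns. MALAT1 gathers in nuclear speckles and NEAT1 builds paraspeckles, H19 and MEG3 are expressed from imprinted clusters, and HOTAIR, from the HOXC cluster, has been tied to the Polycomb machinery. GAS5, SNHG1 and DANCR are hosts of small nucleolar RNAs (snoRNAs), which guide chemical modification of ribosomal RNA. The spliced host RNAs of GAS5 and SNHG1 belong to the 5′TOP class, whose transcripts start with a run of pyrimidines, and are cleared by nonsense-mediated decay when translated. UCA1 was found in urothelial carcinoma and is raised in many epithelial tumours.

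GAS5 and SNHG1 were the members whose annotated probe sets rose, so the promoters of both genes are shown. The sequences are from RefSeq (GRCh38.p14) and run 5′ to 3′ from 250 bases before to 50 bases after the annotated start. Capitals mark the 50 bases from that start.
GAS5, chr1:173868996-173869295, minus strand: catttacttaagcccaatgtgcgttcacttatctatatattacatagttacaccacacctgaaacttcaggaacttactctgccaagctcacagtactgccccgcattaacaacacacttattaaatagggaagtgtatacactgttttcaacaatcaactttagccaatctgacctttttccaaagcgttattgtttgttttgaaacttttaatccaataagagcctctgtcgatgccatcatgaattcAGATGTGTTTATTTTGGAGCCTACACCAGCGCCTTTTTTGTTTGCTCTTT
SNHG1, chr11:62855836-62856135, minus strand: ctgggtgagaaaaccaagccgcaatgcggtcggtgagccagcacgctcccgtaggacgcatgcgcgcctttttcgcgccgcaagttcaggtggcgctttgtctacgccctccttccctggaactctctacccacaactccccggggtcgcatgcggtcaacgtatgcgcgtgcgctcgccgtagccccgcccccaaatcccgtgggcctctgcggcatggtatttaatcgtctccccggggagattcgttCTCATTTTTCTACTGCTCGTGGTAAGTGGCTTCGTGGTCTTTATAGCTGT
The letters TAAACA, part of a common forkhead recognition motif, were found in the GAS5 window and not in the SNHG1 window, searching both strands. They occur in 12.3% of the 35116 promoter windows of the RefSeq table. The longer forms GTAAACA, in 3.42% of windows, and GTAAATA, in 2.67%, were in neither window. GTAAACA contains TAAACA, and GTAAATA does not. The letters TATAAA were in the SNHG1 window and not in the GAS5 window, against 11.5% of all windows on either strand. Both the TAAACA match in GAS5 and the TATAAA match in SNHG1 lie in the capitals, after the annotated start. They read on the strand opposite to the one shown, and these matches describe letters only.

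The start regions of the noncoding snoRNA hosts are shown because a pyrimidine run at the start is the feature that names the 5′TOP class. Of the hosts examined below 8 had an entry. Each line gives 20 bases on either side of the annotated start, and capitals mark the longest run of C and T in that window, or the first where several runs tie, as in SNHG1 and EPB41L4A-AS1.
GAS5, chr1:173869026-173869065, minus strand: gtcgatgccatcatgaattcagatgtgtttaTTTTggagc
SNHG1, chr11:62855866-62855905, minus strand: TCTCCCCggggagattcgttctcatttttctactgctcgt
SNHG12, chr1:28581854-28581893, minus strand: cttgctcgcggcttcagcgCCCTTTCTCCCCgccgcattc
ZFAS1, chr20:49278622-49278661, plus strand: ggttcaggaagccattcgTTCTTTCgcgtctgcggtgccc
SNHG32, chr6:31834896-31834935, plus strand: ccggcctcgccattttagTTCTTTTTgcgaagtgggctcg
SNHG17, chr20:38435309-38435348, minus strand: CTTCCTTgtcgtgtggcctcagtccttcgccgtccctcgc
SNHG29, chr17:16438967-16439006, plus strand: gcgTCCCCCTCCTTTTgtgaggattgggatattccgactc
EPB41L4A-AS1, chr5:112160506-112160545, plus strand: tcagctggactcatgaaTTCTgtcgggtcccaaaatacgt
The longest run was 13 bases in SNHG29, 12 in SNHG12, 8 in SNHG32, 7 in SNHG1, ZFAS1 and SNHG17, and 4 in GAS5 and EPB41L4A-AS1. Across all windows, 3.16% held a run of at least 13, 4.25% of at least 12, 17.5% of at least 8, 25.6% of at least 7 and 79.4% of at least 4. These lengths count a run anywhere in the window and not at the start alone. In SNHG29, SNHG17 and SNHG1 the marked run ends before the annotated start, and in GAS5 it begins after it. The tied run of SNHG1 that is not marked lies after the start. The GAS5 promoter shown above holds a longer run of C and T beyond this window. Annotated starts can lie some bases away from the start used in these cells, which the arrays do not show.

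UCA1, a long noncoding RNA of epithelial tumours, had a far lower signal in FOXC1 cells than in vector cells. The gene lies at chr19:15828947-15836321 (GRCh38.p14, RefSeq). Its signal was 79.2 and 68.1 in the FOXC1 arrays, against 756 and 730 in the vector arrays. Both FOXC1 arrays lay far below both vector arrays, and the arrays of each group lay close together. The means were 73.6 ± 7.87 in FOXC1 cells and 743 ± 18.4 in vector cells (SD, n = 2 each). On the scale of log2(signal + 16) the difference, FOXC1 minus vector, was -3.08 with a standard error of 0.10, or 8.48-fold lower. The added 16 keeps dim signals from dominating and shrinks their folds, and this choice matters for UCA1. With 1 added the difference was -3.32, and with 64 added it was -2.55. Among the 18417 genes UCA1 had the rank 7 from the deepest fall, and 7 genes were lower by at least 8-fold. Among the 632 genes that RefSeq classes as long noncoding RNA and that had a probe set of their own symbol, it had rank 1. In RNA from whole cultures, fewer cells with the transcript and less transcript per cell cannot be told apart.

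**Figure D1:**
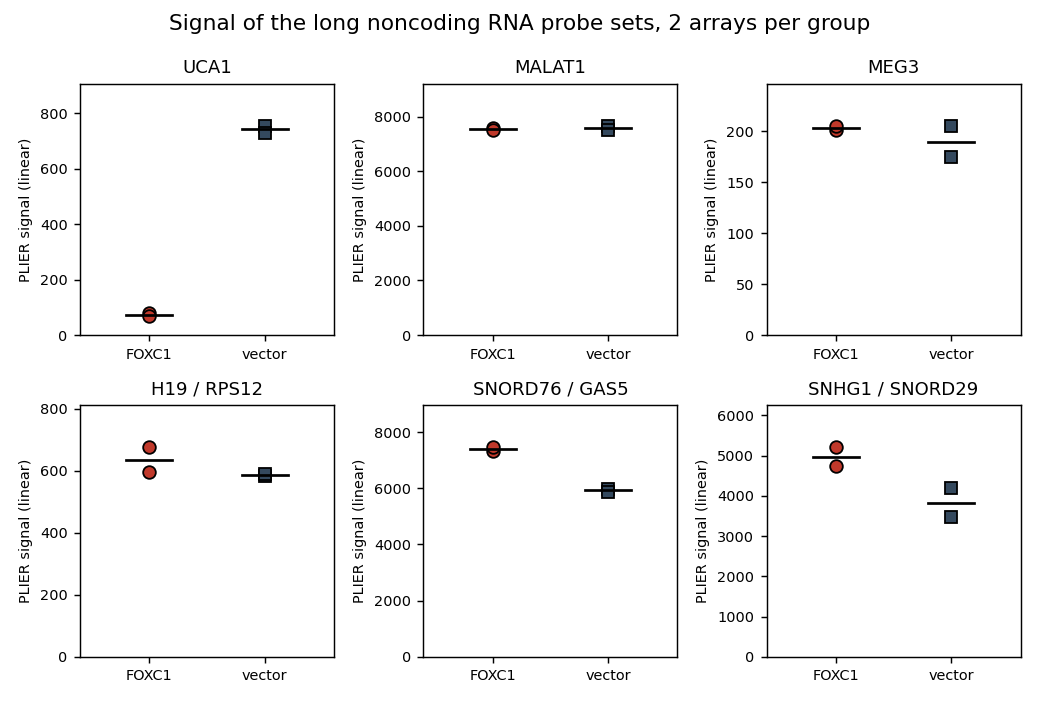
PLIER signal (linear axis from 0) of the brightest probe set of each measured long noncoding RNA, 1 panel per probe set, with FOXC1 arrays on the left and vector arrays on the right. Points are arrays and bars are means of 2 arrays. UCA1 lies at 79.2 and 68.1 in FOXC1 cells and at 756 and 730 in vector cells, while the MALAT1 and MEG3 arrays of both groups overlap.

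The other 5 measured members divided into 2 that rose and 3 that did not pass the test, with none that fell. The test was limma's moderated test over all 21214 probe sets with a gene symbol, with p-values adjusted over all of them and a threshold of 0.05. In the same test 30.9% of all probe sets passed, 16.1% as higher and 14.8% as lower in FOXC1 cells. The count of 2 in 5 genes is read against that share and sets the members apart by no test. FOXC1 and vector arrays did not overlap in 63.3% of all probe sets, so that separation of the arrays is common here.

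MALAT1 at chr11:65497738-65506516 is among the most abundant nuclear RNAs of human cells. Its brighter probe set gave 7569 and 7518 in FOXC1 cells and 7672 and 7492 in vector cells. The groups overlapped, and the log2 difference was -0.01 with a 95% interval of -0.06 to 0.05 (adjusted p = 0.866). A dimmer MALAT1 probe set gave 584 and 576 in FOXC1 cells and 571 and 607 in vector cells, again with overlap (log2 difference -0.02, adjusted p = 0.855). The interval of the brighter probe set leaves room only for differences of a few percent in either direction.

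MEG3, at chr14:100826108-100861026 in the imprinted DLK1 cluster, was dim throughout. Its signal was 201 and 205 in FOXC1 cells, against 174 and 206 in vector cells. The groups overlapped, the mean over all arrays lay at the 17.5 percentile, and the log2 difference was 0.09 with a 95% interval of -0.13 to 0.31 (adjusted p = 0.55). H19, at chr11:1995176-2001266, is an imprinted RNA and the source of a microRNA. Its probe set, annotated to both H19 and the ribosomal protein gene RPS12, gave 595 and 676 in FOXC1 cells and 582 and 590 in vector cells. The FOXC1 arrays lay just above the vector arrays, with a log2 difference of 0.11, a 95% interval of -0.04 to 0.26 and an adjusted p of 0.278. Without FOXC1 replicate 1 the difference was 0.20 and passed (adjusted p = 0.0403), so that 1 array decided this call. The imprinted partners DLK1, RTL1 and CDKN1C were measured out of a list of 5, and none of the 3 passed.

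GAS5, named for its rise in growth-arrested cells, lies at chr1:173863901-173869045. Its brightest probe set, annotated to SNORD76 and GAS5, gave 7315 and 7458 in FOXC1 cells and 5970 and 5876 in vector cells. Both FOXC1 arrays were higher, by 0.32 on the log2 scale (standard error 0.03, 1.25-fold, adjusted p = 8.25e-09). A probe set annotated to GAS5 and SNORD47 gave 4430 and 4592 in FOXC1 cells and 3412 and 3451 in vector cells, a log2 difference of 0.39. The third, annotated to GAS5 and SNORD80, gave 2862 and 2717 in FOXC1 cells and 2288 and 2420 in vector cells, a log2 difference of 0.24. All 3 probe sets that carry the GAS5 symbol thus rose, and in none did the arrays overlap.

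SNHG1, a host gene at chr11:62851978-62855885, was read by 6 probe sets that each also carry a snoRNA symbol. The brightest, annotated to SNHG1 and SNORD29, gave 5206 and 4736 in FOXC1 cells and 3468 and 4189 in vector cells. The FOXC1 arrays were higher by 0.38 on the log2 scale (standard error 0.06, 1.30-fold, adjusted p = 2.05e-05), with a wide gap between the vector arrays. Without vector replicate 1 the difference was 0.24, and leaving out vector replicate 2 instead gave 0.52, both of which passed. This call was lost without the variance trend (adjusted p = 0.0773) and with robust moderation (adjusted p = 0.193). A probe set annotated to SNHG1 and SNORD26 gave 4474 and 4466 in FOXC1 cells and 3422 and 3285 in vector cells, with a log2 difference of 0.41 and an adjusted p of 4.06e-09. The probe set annotated to SNHG1 and SNORD27 gave 1685 and 1601 in FOXC1 cells and 1141 and 1113 in vector cells, a log2 difference of 0.54. The other SNHG1 probe sets, shared with SNORD22, SNORD25 and SNORD31, rose by 0.44 to 0.54.

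The probe sets over the snoRNAs inside both hosts also rose. Of the 10 probe sets in the GAS5 gene, 7 carry a snoRNA symbol alone, and of the 8 in the SNHG1 gene, 2 do. All 18 rose and in all 18 the FOXC1 arrays lay above the vector arrays. Of all probe sets 16.1% were called higher, and in 63.3% the arrays did not overlap, in either direction. The probe sets of 1 gene share a transcript and are not separate replicates of the change. The log2 differences ran between 0.24 and 0.50 with a median of 0.36 in the GAS5 gene, and between 0.38 and 0.55 with a median of 0.50 in the SNHG1 gene. The largest adjusted p of the 18 was 0.000145. Without the variance trend 16 of the 18 passed and with robust moderation 17, and under the other settings run for these genes all 18 passed.

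SNORD30, in an SNHG1 intron, had the largest difference of the 18. Its signal was 3738 and 3634 in FOXC1 cells and 2591 and 2446 in vector cells (log2 difference 0.55, adjusted p = 3.83e-10). SNORD28, in the same gene, gave 2929 and 2941 in FOXC1 cells and 2109 and 1941 in vector cells, a log2 difference of 0.53. In both, the gap between the groups was several times the spread within them. In the GAS5 gene, SNORD77 gave 497 and 447 in FOXC1 cells and 353 and 308 in vector cells, a log2 difference of 0.50. SNORD74 was nearest the lower end among those with a symbol of their own, with 6625 and 6102 in FOXC1 cells and 5329 and 5311 in vector cells (log2 difference 0.26). The labelling used total RNA, and a probe set over a snoRNA can also read the intron or the unspliced host, so mature snoRNA, host RNA and precursor cannot be told apart. Of the 22 small RNAs listed for the members 18 were measured. The microRNAs of H19, MEG3 and NEAT1 and the snoRNA of DANCR were not analysed here.

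**Figure D2:**
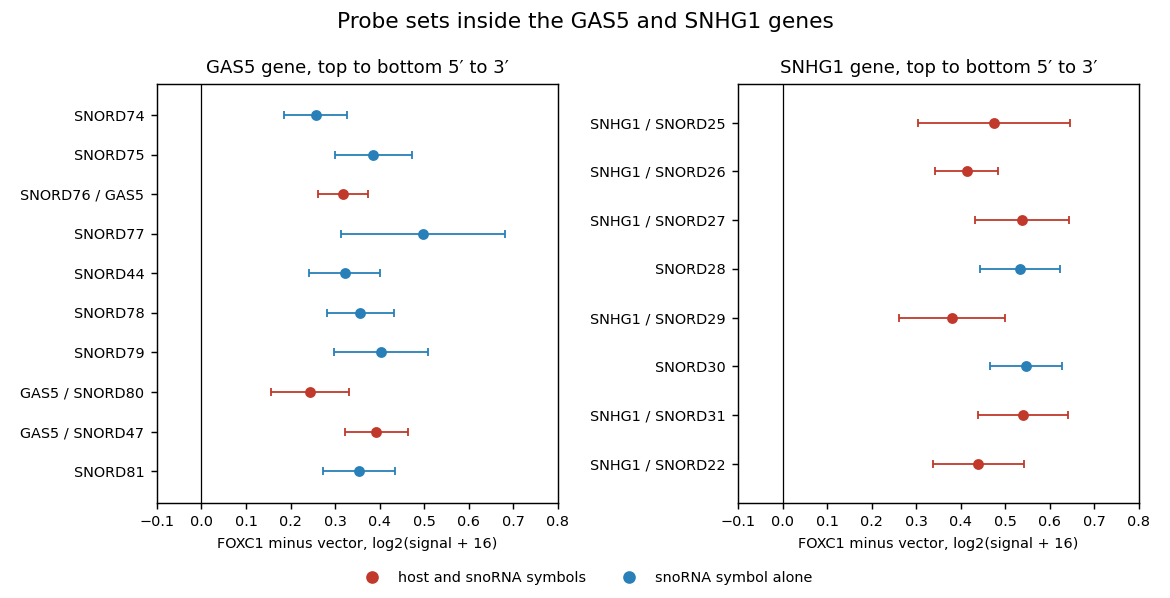
Difference of FOXC1 minus vector on the log2(signal + 16) scale for each probe set inside the GAS5 and SNHG1 genes, in order along the chromosome. Points are limma estimates from 2 arrays per group and bars are 95% intervals. All 18 lie above 0, between 0.24 and 0.55.

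Other noncoding hosts of snoRNAs rose as well. Of 21 such genes listed, GAS5 and SNHG1 included, 13 were measured, 8 rose and 0 fell, beside 16.1% of all probe sets called higher and 14.8% called lower. Their median log2 difference was 0.19, beside 0.03 for all probe sets. Without GAS5 and SNHG1, 6 of 11 rose. All 13 estimates were above 0, and 12 of 13 were after median centring of the arrays. Without the variance trend 4 of the 13 passed. The median signal of the 13 was 3985, beside 782 for all probe sets, and 3 of them were read by a probe set of their own symbol alone. EPB41L4A-AS1 gave 1184 and 1155 in FOXC1 cells and 992 and 951 in vector cells, a log2 difference of 0.26 (adjusted p = 0.000828). Its FOXC1 arrays lay clearly above its vector arrays. ZFAS1, an antisense host beside ZNFX1, gave 4290 and 4213 in FOXC1 cells and 3795 and 3643 in vector cells (log2 difference 0.19, adjusted p = 0.000132). SNHG29 gave 10885 and 10699 in FOXC1 cells and 9387 and 9529 in vector cells (log2 difference 0.19, adjusted p = 1.63e-06). In these 3 hosts the arrays of the groups did not overlap.

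Among the hosts that share a probe set, the one annotated to SNORA16A and SNHG12 gave 9223 and 8862 in FOXC1 cells and 7555 and 7653 in vector cells (log2 difference 0.25, adjusted p = 1.87e-07). A second, annotated to SNORA61 and SNHG12, did not pass (log2 difference 0.07, adjusted p = 0.0902). The probe set of SNORA9 and SNHG15 rose by 0.25 (adjusted p = 0.00924), and that of SNHG32 and SVIL by 0.12 (adjusted p = 0.00672). Without vector replicate 2 neither passed, with adjusted p of 0.285 for SNHG15 and 0.149 for SNHG32, and without FOXC1 replicate 1 SNHG15 had 0.0647. SNHG3 read with SNORA73A had a difference of 0.01 (adjusted p = 0.753), while a dimmer probe set annotated to RCC1 and SNHG3 passed at 0.10 (adjusted p = 0.0321) but not without FOXC1 replicate 1 (0.084) or vector replicate 2 (0.392). SNHG17 with SNORA71B had 0.09 (adjusted p = 0.0665), while its 2 dimmer probe sets with the SNHG17 symbol alone passed at 0.17 and 0.33. The different probe sets of SNHG3, SNHG12 and SNHG17 thus gave different calls. SNHG10, SNHG11 and SNHG16 did not pass.

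**Figure D3:**
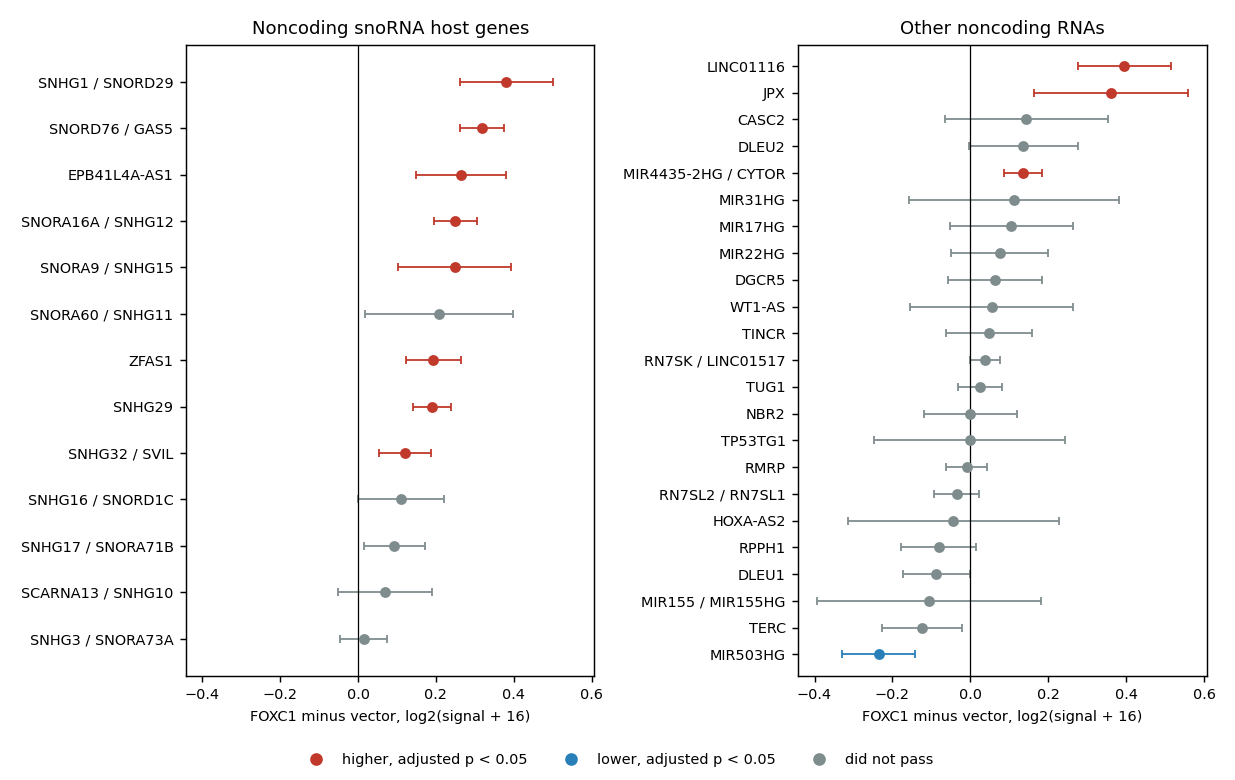
Difference of FOXC1 minus vector on the log2(signal + 16) scale for the noncoding snoRNA host genes and for the other listed long noncoding RNAs, with points for limma estimates (2 arrays per group), bars for 95% intervals and colours for calls at an adjusted p of 0.05. All 13 hosts lie above 0 and 8 pass, while 4 of the 23 other RNAs pass, 3 higher and 1 lower.

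Among long noncoding RNAs outside the snoRNA hosts few passed. Of 54 listed by name 23 were measured, 3 rose and 1 fell, which is 17.4%, beside 30.9% of all probe sets, and their median log2 difference was 0.04. LINC01116 gave 1723 and 1549 in FOXC1 cells and 1287 and 1191 in vector cells, a log2 difference of 0.40 (adjusted p = 1.18e-05). JPX, an activator of the X inactivation gene, gave 288 and 267 in FOXC1 cells and 213 and 212 in vector cells, a difference of 0.36 (adjusted p = 0.00558). Both were higher in each FOXC1 array than in either vector array. A probe set annotated to MIR4435-2HG and CYTOR rose by 0.14 (adjusted p = 0.000101), a call lost without the variance trend (adjusted p = 0.0855). MIR503HG, the host of a microRNA cluster, fell, with 1677 and 1704 in FOXC1 cells and 1944 and 2044 in vector cells (log2 difference -0.24, adjusted p = 0.00033). TUG1, bright in all arrays, gave 7812 and 8012 in FOXC1 cells and 7935 and 7623 in vector cells, with overlap. The RNA components RMRP, RPPH1 and TERC did not pass. Nor did RN7SK, read by a probe set shared with LINC01517, or RN7SL1, read by a probe set shared with RN7SL2. After median centring the calls on this list were 3 higher and 3 lower.

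The genes beside the members on the chromosome were examined because neighbours can share regulatory regions. The 3 nearest measured genes that start on each side of each member gave 48 genes, of which 8 rose and 1 fell, or 18.8%, below the 30.9% called over all probe sets. One of them, MRPL23, spans H19. Around UCA1 none of the 6 neighbours passed. The odorant receptor genes OR10H3, OR10H5, OR10H1 and OR10H4 and the cytochrome P450 genes CYP4F2 and CYP4F11 had log2 differences between -0.16 and 0.08, with a smallest adjusted p of 0.367. CYP4F2, a fatty acid hydroxylase, gave 704 and 691 in FOXC1 cells and 712 and 609 in vector cells, and CYP4F11 gave 168 and 205 in FOXC1 cells and 238 and 183 in vector cells. In all 6 the groups overlapped. OR10H1 gave 86.6 and 78.3 in FOXC1 cells and 83.8 and 75.5 in vector cells. OR10H4 gave 79.2 and 67.3 in FOXC1 cells and 69.4 and 81.8 in vector cells. Both genes lay near the signal of UCA1 in FOXC1 cells, at the 4.63 and 3.86 percentile, so a fall could hardly be seen in them. OR10H5 and CYP4F2 were brighter, at the 53.5 and 46.5 percentile. Around GAS5 none of the 6 passed either, with a smallest adjusted p of 0.129.

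Next to SNHG1 2 of the 6 neighbours rose and 0 fell, beside 30.9% of all probe sets called in either direction. SLC3A2, the heavy chain of amino acid transporters at the cell surface, is transcribed from the opposite strand, and its nearest annotated start lies 224 bases from that of SNHG1. Its signal was 8526 and 8241 in FOXC1 cells and 6386 and 6739 in vector cells. Both FOXC1 arrays were higher, by 0.35 on the log2 scale (adjusted p = 5.05e-09), while the 8 probe sets in the SNHG1 gene had differences of 0.38 to 0.55. WDR74, on the other side of SNHG1, rose by 0.10 (adjusted p = 0.0118) but did not pass without FOXC1 replicate 1 (0.0963) or vector replicate 2 (0.0896), and the remaining 4 neighbours did not pass. Near HOTAIR, CALCOCO1 gave 742 and 658 in FOXC1 cells and 963 and 992 in vector cells and fell (log2 difference -0.47, adjusted p = 8.12e-06), and MIR196A2 rose by 0.34 (adjusted p = 0.00994). That rise did not pass without vector replicate 2 (log2 difference 0.30, adjusted p = 0.109). USP46, near DANCR, rose by 0.25 (adjusted p = 0.000233). ZNRD2 and TIGD3 beside MALAT1 and NEAT1 rose by 0.23 and 0.18, MIR127 beside MEG3 by 0.25 and IGF2-AS beside H19 by 0.16. The call of MIR127 was lost without FOXC1 replicate 2 (log2 difference 0.20, adjusted p = 0.0812) and without vector replicate 2 (0.20, adjusted p = 0.205). IGF2-AS did not pass without FOXC1 replicate 1 (adjusted p = 0.0576) or vector replicate 1 (0.371), nor TIGD3 without vector replicate 2 (0.265).

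Proteins and factors tied to the members were described by the lists they belong to. Of 9 factors linked to UCA1 in the literature 4 fell and 1 rose, beside 14.8% of all probe sets called lower and 16.1% called higher, with a median log2 difference of -0.03. The hypoxia factor HIF1A gave 7362 and 7202 in FOXC1 cells and 11762 and 12263 in vector cells, a log2 difference of -0.72 (1.65-fold lower, adjusted p = 3.75e-15). The Hippo pathway coactivators followed, with WWTR1 at 5046 and 4916 in FOXC1 cells and 7229 and 7570 in vector cells (log2 difference -0.57, adjusted p = 3.42e-12). YAP1 gave 4636 and 4506 in FOXC1 cells and 6021 and 6291 in vector cells (log2 difference -0.43, adjusted p = 6.76e-10). In these 3 genes every FOXC1 array lay below every vector array by more than the spread within a group. The cell cycle inhibitor CDKN1B fell by 0.15 (adjusted p = 0.0142), a call lost without FOXC1 replicate 2 (log2 difference -0.10, adjusted p = 0.106) and without vector replicate 2 (-0.12, adjusted p = 0.174). The splicing regulator PTBP1 rose by 0.06 (adjusted p = 0.033), and without FOXC1 replicate 1 (0.104), FOXC1 replicate 2 (0.0567) or vector replicate 1 (0.287) it did not pass. The factors TEAD4, ETS2, CEBPA and IGF2BP1 did not pass.

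The proteins of nuclear bodies had small differences. Of 9 measured paraspeckle proteins 1 rose and 2 fell, a share near the 30.9% called over all probe sets, with PSPC1 at 4141 and 4011 in FOXC1 cells and 4404 and 4491 in vector cells (log2 difference -0.13). The core pair NONO and SFPQ did not pass, with differences of -0.0017 and 0.03. The 3' processing factor NUDT21 fell by 0.12 and DAZAP1 rose by 0.14. Of 8 nuclear speckle and splicing proteins 3 rose and 1 fell, beside the same 30.9%, with SRSF2 at 8703 and 8479 in FOXC1 cells and 7710 and 7885 in vector cells (log2 difference 0.14). SRRM1 rose by 0.12, SRRM2 rose by 0.08 and SRSF5 fell by 0.11. Of these, the calls of DAZAP1, PSPC1, SRRM1, SRRM2 and SRSF5 were lost when 1 array was left out. Without vector replicate 1 the adjusted p was 0.0764 for DAZAP1, 0.0888 for SRRM1, 0.0872 for SRRM2 and 0.317 for SRSF5, and without vector replicate 2 it was 0.0681 for DAZAP1, 0.0853 for PSPC1 and 0.126 for SRRM2. SRSF5 was also lost without FOXC1 replicate 1 (adjusted p = 0.0547).

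Of 9 Polycomb and LSD1 complex genes, partners described for HOTAIR, 3 fell and 0 rose, and the share that passed is near the 30.9% over all probe sets. The corepressor RCOR1 gave 3727 and 3624 in FOXC1 cells and 4405 and 4561 in vector cells (log2 difference -0.29, adjusted p = 8.75e-07). The demethylase KDM1A fell by 0.14, and RBBP4 fell by 0.10, a call lost without vector replicate 1 (log2 difference -0.08, adjusted p = 0.113). The methyltransferase EZH2 and its partners SUZ12 and EED did not pass. Of 5 measured nonsense-mediated decay factors, which clear spliced GAS5 and SNHG1 RNA, 1 passed, beside 30.9% of all probe sets. The kinase SMG1, read by its brightest probe set with that symbol alone, rose by 0.15, and this call was lost without vector replicate 2 (log2 difference 0.11, adjusted p = 0.151). A brighter probe set annotated to SMG1 and 3 of its pseudogenes did not pass (log2 difference 0.10, adjusted p = 0.0698), so the SMG1 signal is uncertain. UPF1, the central helicase of that pathway, had a difference of 0.07 (adjusted p = 0.16). The glucocorticoid receptor NR3C1, whose DNA sites GAS5 RNA can mimic, gave 3961 and 4078 in FOXC1 cells and 4255 and 4173 in vector cells. Its log2 difference was -0.07 (adjusted p = 0.129).

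The genes most like UCA1 over the 4 arrays were chosen by the smallest distance between log2 profiles, each centred on its own mean. They were ADGRE1, with a distance of 0.17 and a log2 difference of -3.24, CD96 (0.21 and -2.88), MPZL2 (0.23 and -3.29), TENM1 (0.27 and -2.83) and SERPINA1 (0.47 and -2.65). CD96 gave 704 and 647 in FOXC1 cells and 5146 and 4987 in vector cells, and SERPINA1 gave 22.2 and 24.1 in FOXC1 cells and 237 and 221 in vector cells. Of the 5, ADGRE1 lies on chromosome 19, as UCA1 does. Profiles over 4 arrays in 2 groups are alike for every gene that falls by a similar amount, and they carry no test. ADGRE1 and CD96 are known from leukocytes. Of the leukocyte markers looked up, CD3E and CD14 did not pass and PTPRC, at 93.9 and 93.5 in FOXC1 cells and 62.6 and 63.5 in vector cells, rose. The endothelial marker PECAM1 gave 249 and 245 in FOXC1 cells and 719 and 914 in vector cells and fell, while CDH5 did not pass. The part of other cell types in the UCA1 difference was not tested.

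**Figure D4:**
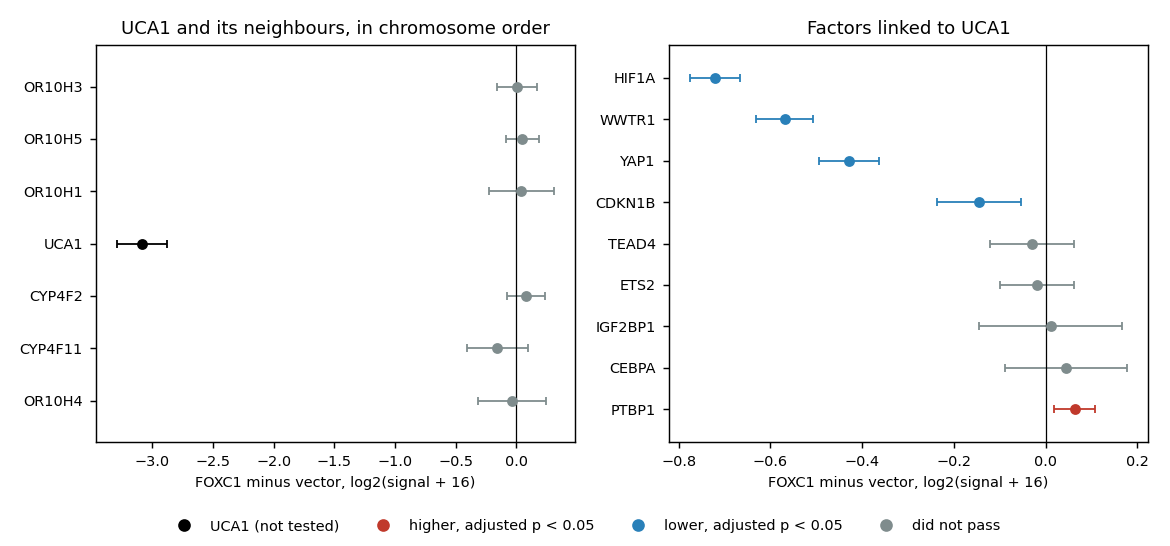
Difference of FOXC1 minus vector on the log2(signal + 16) scale for UCA1, its neighbours on chromosome 19 and the factors linked to it. Points are limma estimates (2 arrays per group) and bars are 95% intervals. UCA1 stands at -3.08 while its 6 neighbours lie between -0.16 and 0.08. UCA1 was chosen for its fall in this comparison, so its interval is a description and no test.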

How the data were processed

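Total RNA of FOXC1-transfected and vector-transfected MDA-MB-231 cells was amplified from 100 ng, per the labels' protocols, and read on 4 arrays. Per the submitters' processing notes the authors summarised probes with PLIER in Affymetrix Expression Console. The authors deposited linear intensity values. No background step, normalization option or version is given in the sources used here. Values were used as deposited, with 16 added before log2. The table has 33297 probe sets. A symbol was annotated to 21214 (1 symbol for 19460, more for 1754), and the 12083 without one entered only the fit over all rows. Names came from GEO's platform annotation, coordinates and sequences from RefSeq (GRCh38.p14).

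Annotated probe sets were compared in R 4.3.3 using limma 3.58.1 (lmFit and trended eBayes, two-sided, Benjamini-Hochberg at 0.05). The fit had 2 residual and 18.1 prior degrees of freedom, and was tested on simulated data. An exact permutation test of 2 against 2 arrays cannot go below a two-sided p of 0.333. The small number of arrays limits precision, and whether replicates were separate cultures is not stated beyond the label, so the p-values may measure technical spread. Arrays with the same replicate number did not deviate together (correlation -0.01 across probe sets), so no block was used. No batch is given in the labels.

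Members and lists were chosen with earlier results of these data known. Named genes were all members and their probe sets, up to 4 genes that passed per list (partners by the brightest probe set with 1 symbol) and among neighbours, the neighbours of UCA1, the 5 genes most like it, and NR3C1. Genes named beyond these are examples chosen after their values were seen. Neighbours were the 3 nearest that start before and the 3 that start after a member, so snoRNAs inside a host count only as embedded RNAs. The 14 alternatives were offsets of 1 and 64, a filter at the 25th percentile, quantile normalization, median centring, no variance trend, robust moderation, a replicate block, all rows, the mean of a gene's probe sets and leaving out each array.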

Additional observations from a re-analysis of the deposited data

How the results depend on the processing

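With all probe sets the main test called 3422 higher and 3136 lower, and after median centring of the arrays 2062 higher and 3773 lower. The median log2 difference of all probe sets was 0.03 as deposited, -0.01 after median centring and 0.02 after quantile normalization. Of the results for single genes under alternatives 498 kept their direction and side of the threshold, 40 lost their call, 1 gained one and 2 changed sign. Leaving out each array gave MALAT1 differences of -0.0244 to 0.00985 and MEG3 differences of -0.0161 to 0.204, and neither gene passed in any setting run. Both changed sign without vector replicate 1. UCA1 was -3.32 with 1 added and -2.55 with 64 added, and between -3.17 and -2.99 under the other 12 alternatives. Without the variance trend the calls numbered 3667 in all, 1 among the members other than UCA1 (2 in the main test), 4 among the noncoding snoRNA hosts (against 8) and 4 among the partners (against 16). With robust moderation 1 of the members other than UCA1 passed. In the fit over all rows 5 neighbours passed, against 9. The cause of these shifts was not tested. Leaving out each array in turn gave 4682 to 6830 calls in all, 6 to 9 among neighbours, 2 to 3 among members, 6 to 10 among hosts, 11 to 16 among partners, 5 among other long noncoding RNAs, 18 among the small RNAs, and -3.17 to -2.99 for UCA1. With the replicate block, where arrays share only a number, the calls numbered 7311 in all, 2 among members, 9 among hosts, 20 among partners, 6 among other long noncoding RNAs, 10 among neighbours and 18 among the small RNAs. The 25th percentile filter left out MEG3, JPX, MIR196A2, MPZL2 and SERPINA1, among others, and these gave no value there. Dim signal limits what can be said of MEG3, and of UCA1 in FOXC1 cells.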

Other observations

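Beyond the genes listed by name, 632 genes that RefSeq classes as long noncoding RNA had a probe set of their own symbol. Of these 56 rose and 26 fell, so that 82 of 632 passed, a smaller share than the 30.9% of all probe sets, with a median signal of 247 against 782 for all probe sets. The genes named here were chosen after their values were seen. After UCA1 the deepest falls among the 632 genes were those of SLCO4A1-AS1 and AFAP1-AS1, at rank 2 and 3. SLCO4A1-AS1 gave 350 and 352 in FOXC1 cells and 1249 and 1355 in vector cells (log2 difference -1.84), and the transporter gene SLCO4A1, on the opposite strand, gave 766 and 672 in FOXC1 cells and 3565 and 3483 in vector cells (log2 difference -2.27). AFAP1-AS1 gave 141 and 183 in FOXC1 cells and 533 and 551 in vector cells (log2 difference -1.66), while AFAP1 itself did not pass (log2 difference 0.02, limma adjusted p = 0.701). Whether the probe sets of SLCO4A1 and its antisense gene read the same strand was not tested.

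Among the rises, LINC00417 gave 495 and 460 in FOXC1 cells and 216 and 224 in vector cells (log2 difference 1.06). LINC01128 gave 1066 and 1140 in FOXC1 cells and 715 and 655 in vector cells (log2 difference 0.68). FAM230B, from a repeated gene family, had the largest rise, with 2939 and 3182 in FOXC1 cells and 338 and 938 in vector cells (log2 difference 2.40), and its vector arrays lay far apart.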
